A study of Mus musculus with 18 samples.

Results

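The comparison described here sets embryoid bodies labelled Mettl14 or Mettl3 knockout against their controls and asks which genes moved the same way in both. It uses the 12 libraries grown without an inhibitor, of 18 in the series, chosen by their labels: 3 Mettl14 knockout, 3 Mettl14 control, 3 Mettl3 knockout and 3 Mettl3 control libraries. The other 6 carry an inhibitor and were left out. All cells are C57BL/6 mouse embryonic stem cells, called conditional knockout (CKO) lines in the labels, kept with LIF, CHIR99021 and PD0325901 and then differentiated for 7 days as floating embryoid bodies without feeder cells. Per the labels' protocols the CKO cells of each line received DMSO as well as the inhibitor. The labels do not say how the alleles were deleted, what genotype the controls have, whether the controls also received DMSO, how many clones were used, or whether the 3 replicates of a group were separate cultures, so p-values measure the spread between these libraries, which may be technical. Polyadenylated RNA was purified and sequenced as a stranded library, and reads were counted per gene.

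METTL3 and METTL14 form the heterodimer that writes N6-methyladenosine (m6A) on messenger RNA: METTL3 holds the catalytic site, and METTL14 shapes the RNA-binding surface and stabilises its partner. WTAP, VIRMA, ZC3H13, RBM15 and CBLL1 place the dimer on its targets, YTH-domain proteins read the mark, and FTO and ALKBH5 remove it. The mark is known for shortening the life of many transcripts, among them those of pluripotency regulators in embryonic stem cells. The series was designed around a chromatin role of METTL14, with inhibitors of the H3K27 methyltransferase and demethylases in the libraries not used here.

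The shallowest library, Mettl14 knockout replicate 3, held 1303697 counts, against 6978577 to 10285737 in the other Mettl14 libraries and 17544904 to 32540164 in the Mettl3 libraries. In that library 7.83% of counts fell in genes that overlap ribosomal RNA, against 0.242% to 1.15% in the other 11. Total count, number of genes with counts, mitochondrial share and ribosomal RNA share were each tested between knockouts and controls within lines (exact permutation test, two-sided, 400 relabellings, smallest possible p = 0.005), and the 4 p-values lay between 0.41 and 0.645, all 0.645 after Benjamini-Hochberg adjustment. The first principal component (39.8% of the variance) separated the lines and not the knockouts. On the second (20.7%) Mettl14 knockout replicates 1 and 3 lay at opposite ends, and on the fourth (7.22%) Mettl3 knockout replicate 2 stood apart. Fibroblast and mesenchyme markers summed to between 4169.7 and 5818 CPM (counts scaled to a common library total). Marker lists of other cell types were lower: endoderm summed to 128 to 420.4 CPM, pluripotency to 123 to 209, neural to 37.4 to 253, endothelial to 46.6 to 127, skeletal muscle to 1.44 to 75.3, blood and macrophage to 6.41 to 91.4, adipocyte to 128 to 380.4, epithelial to 0 to 11.4 and early mesoderm and cardiac to 6.84 to 23.1. Their part in the results was not tested. In bulk RNA, fewer cells of a type and less RNA per cell cannot be told apart.

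No gene passed the test of a knockout term common to both lines. Of 16126 genes tested with edgeR's quasi-likelihood test, 0 (0%) had a Benjamini-Hochberg adjusted p under 0.05, and DESeq2 and limma voom also called 0. At an unadjusted p under 0.05 there were 472 genes, 286 higher in the knockouts (1.77%) and 186 lower (1.15%), where 5% of the genes tested would be 806. DESeq2 had 627 and voom 819 at that level. Of the other settings of the edgeR fit, 3 gave calls: without the filter on low counts 30 genes were called (18 higher, 12 lower), the mean of the separate line effects called 1, C3, and without Mettl14 knockout replicate 1 there were 3 calls, Cdh19 higher and Prl2c2 and Gsta4 lower. Every gene value below is therefore a level or an estimate and not a called change, and its adjusted p in the common term was 1.00 unless another is given.

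How tightly the data bound a common change depended on abundance. Over all 16126 genes the 95% interval of the common change lay within 2-fold in either direction for 9081 (56.3%). Among the 9114 genes with a mean of 10 CPM or more, it did so for 8616 (94.5%), with a median standard error of 0.19 on the log2 scale. Among lists described below, it did so for 15.4% of the interferon response genes, 28.6% of the contractile, 30.8% of the neural crest and 50% of the HOX genes tested. Counts were simulated at the spread of these libraries, with 100 genes of that abundance changed 2-fold and 100 changed 4-fold among 16126. The common term recovered 85% of the former and 100% of the latter, and 14 unchanged genes were also called. The adjusted threshold is easier to pass when many genes change together, and recovery of a lone changed gene was not simulated. Counts were drawn independently for each gene, without shifts shared across a library. The spread within groups was wide. The biological coefficient of variation was 0.499 in the fit of 4 group means and 0.502 in the common fit.

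The lines' own effects did not run in parallel across genes. Over all 16126 genes the correlation of the Mettl14 and Mettl3 log2 changes was r = -0.02 (Spearman rho -0.08), and 44.9% had the same sign in both lines. At 10 CPM or more r was -0.17 and rho -0.21, with 42.0% of the same sign. Genes are not independent replicates, so these are descriptions with no p. A single library set the sign: without Mettl14 knockout replicate 1 the correlation at 10 CPM or more was 0.11, and without Mettl14 knockout replicate 3 it was -0.31. In 48 genes all 3 knockouts lay beyond all 3 controls in the same direction in both lines, 25 higher (0.155%) and 23 lower (0.143%). In 101 genes (0.626%) the groups did not overlap in either line but the directions were opposite.

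**Figure D1:**
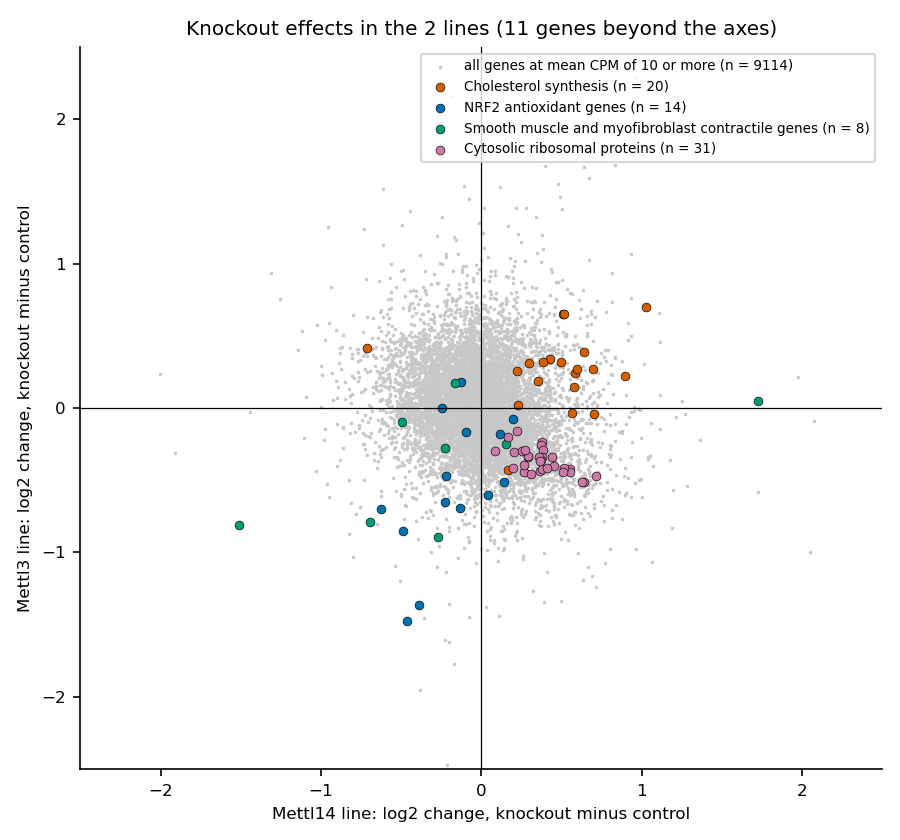
Log2 change of each gene, knockout minus control, in the Mettl14 line (x axis) and the Mettl3 line (y axis), for the 9114 genes at a mean of 10 CPM or more (grey), with 4 gene lists in colour; 11 genes lie beyond the axes. Cholesterol synthesis genes sit mostly in the upper right quadrant, NRF2 antioxidant genes mostly in the lower left, and the 31 ribosomal protein genes all in the lower right, higher in Mettl14 knockouts and lower in Mettl3 knockouts.

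RNA of the targeted genes did not mark the knockouts. Mettl14 (chromosome 3, 123368297 to 123386108, minus strand, build GRCm38) stood at 17.1, 18.3 and 17.2 CPM in the Mettl14 controls, 16.8, 23.4 and 19.7 CPM in the Mettl14 knockouts, 20.7, 20.6 and 23.3 CPM in the Mettl3 controls and 18.5, 10.97 and 17.9 CPM in the Mettl3 knockouts. Its Mettl14 groups overlapped, while in the Mettl3 line all 3 knockouts lay below the controls. Mettl3 (chromosome 14, 52294841 to 52305128, minus strand) stood at 18.1, 20.2 and 21.5 CPM in the Mettl14 controls, 21.8, 16.7 and 19.7 CPM in the Mettl14 knockouts, 19.2, 32.8 and 17.95 CPM in the Mettl3 controls and 24.9, 6.64 and 17.2 CPM in the Mettl3 knockouts. The groups of both lines overlapped, with the lowest level in Mettl3 knockout replicate 2. Counts over a whole gene do not check the deletion of an exon, which can leave the rest of the transcript in place, so these values neither bear out nor contradict the labels.

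None of the 10 writer complex genes reached an unadjusted p under 0.05 in the common term, and their median change was -0.06 log2, against 0.00 for all genes tested. Their estimates ran from -0.31 to 0.21. Wtap, the regulatory subunit, was at 0.09 (SE 0.15), the scaffold Virma at 0.15 (SE 0.17) and the RNA-binding adaptor Rbm15b at -0.22 (SE 0.16). Among 14 readers and erasers 1 (7.14%) reached that level, beside 1.77% higher and 1.15% lower among all genes. It was Fto, the demethylase, at 82.0, 104 and 79.3 CPM in the Mettl14 controls, 66.9, 109 and 167 CPM in the Mettl14 knockouts, 85.0, 87.7 and 83.5 CPM in the Mettl3 controls and 103, 137 and 106 CPM in the Mettl3 knockouts. All 3 Mettl3 knockouts exceeded their controls, and the Mettl14 groups overlapped, for a common estimate of 0.39 (SE 0.17, unadjusted p = 0.0382); without the shallowest library it was 0.23. The reader Ythdf1 was at 0.13 (SE 0.14).

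The Polycomb system silences developmental genes through H3K27 methylation. In Polycomb repressive complex 2, 0 of 11 tested genes reached an unadjusted p under 0.05 (median -0.04), in complex 1, 0 of 20 (-0.02), and among H3K27 and H3K4 demethylases and their partners, 0 of 14 (0.03). With 1.77% of all genes higher and 1.15% lower at that level, counts of 0 in lists of this size are near the background. Ezh2, the catalytic subunit that the Mettl14 line's inhibitor targets, stood at 16.6, 10.5 and 11.3 CPM in the Mettl14 controls, 11.5, 15.8 and 6.84 CPM in the Mettl14 knockouts, 9.58, 10.2 and 11.3 CPM in the Mettl3 controls and 10.99, 20.2 and 12.7 CPM in the Mettl3 knockouts. Its knockouts and controls overlapped in both lines (0.21, SE 0.27). Ezh1, its paralogue, was at -0.32 (SE 0.18, unadjusted p = 0.0917), and the H3K27 demethylases Kdm6a and Kdm6b at 0.01 (SE 0.22) and 0.21 (SE 0.21). The sign of the demethylase list differed by line: 12 of its 14 genes were lower in Mettl14 knockouts and higher in Mettl3 knockouts, with medians of -0.14 and 0.24. The Mettl14 libraries did not share that sign: relative to the controls the list's mean level was -0.57, -0.37 and 0.29 log2 in the 3 knockouts, the shallowest library lying above all its controls.

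Of 43 tested developmental regulators that are textbook Polycomb targets, 1 was higher (2.33%, against 1.77% of all genes) and 2 were lower (4.65%, against 1.15%) at an unadjusted p under 0.05, with a median of 0.05. Tbx18, a T-box factor of mesenchymal progenitors, was at 29.5, 32.5 and 32.2 CPM in the Mettl14 controls, 26.7, 21.9 and 15.4 CPM in the Mettl14 knockouts, 22.7, 24.2 and 23.2 CPM in the Mettl3 controls and 16.2, 14.6 and 22.1 CPM in the Mettl3 knockouts. All 3 knockouts lay below all 3 controls in both lines (-0.46 (SE 0.19, unadjusted p = 0.0230)). Lhx9, a LIM homeobox factor, was also lower (-0.71 (SE 0.30, unadjusted p = 0.0254)), and Dlx5, a homeobox factor of bone and neural crest, was higher at 1.37 (SE 0.61, unadjusted p = 0.0363) on levels of at most 14.1 CPM. Of 34 tested HOX genes, Hoxa2 was higher and Hoxc6 lower at that level, 2.94% each. Hoxa2 stood at 0.841, 0.367 and 0 CPM in the Mettl14 controls, 2.52, 4.82 and 0 CPM in the Mettl14 knockouts, 0.264, 0.397 and 0.0338 CPM in the Mettl3 controls and 1.42, 4.11 and 2.36 CPM in the Mettl3 knockouts, near the detection limit throughout and at 0 in the shallowest library. Hoxc6 was at -0.37 (SE 0.16, unadjusted p = 0.0339).

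Enzymes of cholesterol synthesis had higher estimates in the knockouts of both lines. Cells make cholesterol from acetyl-CoA through mevalonate, squalene and lanosterol, and the enzymes are transcribed together under SREBP2, a factor released from the endoplasmic reticulum membrane when sterols are scarce. All 21 enzymes of the list were tested; 19 had a positive common estimate, 17 were positive in both lines, and 12 were higher at an unadjusted p under 0.05, with 0 lower. Set against that, 1.77% of all genes tested were higher at that level. The median change was 0.38 log2 (0.51 in the Mettl14 line, 0.27 in the Mettl3 line). The list was drawn up with earlier results of these libraries known, so the count is a description, and no member passed the adjusted threshold. Without Mettl14 knockout replicate 2 the count was 7 and the median 0.32, and in a fit to all 18 libraries the count was also 7.

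In the mevalonate arm, Hmgcs1, which makes HMG-CoA, was at 0.41 (SE 0.15, unadjusted p = 0.0103) and Acat2, which joins the first 2 acetyl units, at 0.48 (SE 0.18, unadjusted p = 0.0133). Idi1, the isopentenyl diphosphate isomerase, had the largest estimate of the list and wide groups: 55.6, 38.1 and 21.98 CPM in the Mettl14 controls, 74.3, 111 and 44.5 CPM in the Mettl14 knockouts, 26.9, 51.0 and 55.4 CPM in the Mettl3 controls and 50.2, 107 and 59.4 CPM in the Mettl3 knockouts. Its groups overlapped in both lines (0.86 (SE 0.26, unadjusted p = 0.00297)). Mvk, Pmvk and Mvd, the kinases and the decarboxylase that turn mevalonate into isopentenyl diphosphate, were at 0.12, 0.24 and 0.31, with standard errors of 0.19 to 0.24. Fdps was counted at 0.0549 to 3.95 CPM; near-identical copies of this gene exist in the genome, and its counts are uncertain.

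The 3 members without overlap in both lines act after squalene. Sqle, squalene epoxidase, stood at 86.0, 90.2 and 72.3 CPM in the Mettl14 controls, 111, 100.1 and 126 CPM in the Mettl14 knockouts, 96.5, 101 and 96.9 CPM in the Mettl3 controls and 115, 148 and 109.8 CPM in the Mettl3 knockouts. Every knockout lay above every control of its line, and the common estimate was 0.38 (SE 0.13, unadjusted p = 0.00902). Cyp51, lanosterol demethylase, was at 157, 152 and 140.4 CPM in the Mettl14 controls, 202, 217 and 165 CPM in the Mettl14 knockouts, 196, 193 and 187 CPM in the Mettl3 controls and 222, 281 and 214 CPM in the Mettl3 knockouts. Again no knockout overlapped a control of its line (0.35 (SE 0.13, unadjusted p = 0.0121)). Sc5d (chromosome 9, 42251595 to 42264256), sterol-C5-desaturase, was the third such member, at 59.2, 50.4 and 47.4 CPM in the Mettl14 controls, 93.3, 71.9 and 78.7 CPM in the Mettl14 knockouts, 59.5, 59.3 and 70.7 CPM in the Mettl3 controls and 70.8, 90.3 and 86.5 CPM in the Mettl3 knockouts. Its estimate was 0.51 (SE 0.14, unadjusted p = 0.00185), or 1.42-fold.

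Hsd17b7, the sterol ketoreductase, was at 0.59 (SE 0.17, unadjusted p = 0.00216), Fdft1, squalene synthase, at 0.36 (SE 0.14, unadjusted p = 0.0184), and Nsdhl at 0.43 (SE 0.19, unadjusted p = 0.0310). Tm7sf2, a sterol reductase, was at 0.55 (SE 0.26, unadjusted p = 0.0466). The 2 members with negative estimates were Ebp (-0.14, SE 0.20) and Ggps1 (-0.13, SE 0.22), which makes geranylgeranyl diphosphate rather than sterol. Ggps1 was without overlap in both lines but in opposite directions, lower in Mettl14 knockouts (-0.72) and higher in Mettl3 knockouts (0.41).

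**Figure D2:**
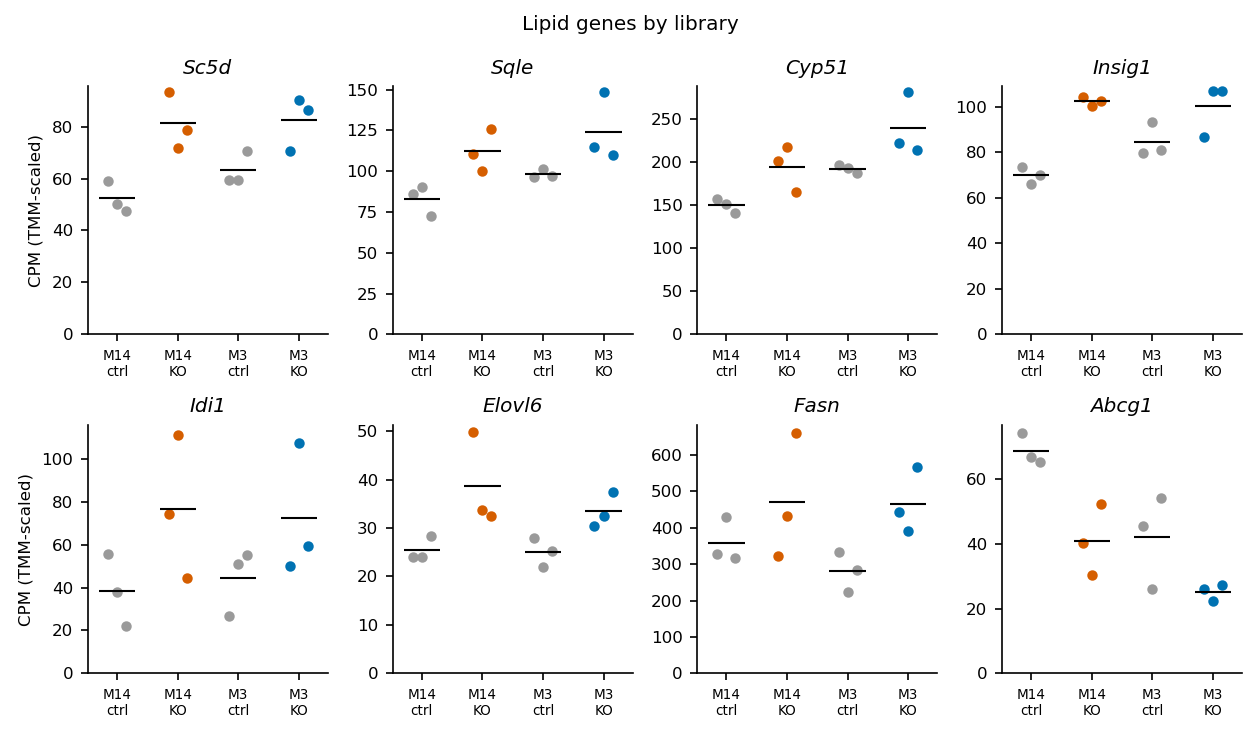
CPM (y axis, TMM-scaled) of 8 lipid genes in the 12 libraries, 1 point each, with the mean as a line; M14 and M3 are the lines, ctrl the controls and KO the knockouts. In Sc5d, Sqle, Cyp51 and Elovl6 every knockout lies above every control of its line; Abcg1 is lower in the knockouts, with overlap in the Mettl3 line only.

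Genes that carry out and control lipid supply around this pathway gave a mixed picture. In fatty acid synthesis, 4 of 12 tested genes were higher and 0 lower at an unadjusted p under 0.05, beside 1.77% higher among all genes (median 0.24), and 2 of 12 in a fit to all 18 libraries. Fasn, fatty acid synthase, was at 328, 429 and 317 CPM in the Mettl14 controls, 322, 432 and 660.4 CPM in the Mettl14 knockouts, 335, 223 and 284 CPM in the Mettl3 controls and 442, 390.2 and 567 CPM in the Mettl3 knockouts. The Mettl3 groups did not overlap and the Mettl14 groups did (0.56 (SE 0.17, unadjusted p = 0.00391)). Acaca, acetyl-CoA carboxylase, was at 0.53 (SE 0.19, unadjusted p = 0.0115), and Scd1, stearoyl-CoA desaturase, at 0.41 (SE 0.16, unadjusted p = 0.0145). Elovl6, which extends palmitate, was the member without overlap in either line, at 24.0, 24.0 and 28.3 CPM in the Mettl14 controls, 49.9, 33.8 and 32.5 CPM in the Mettl14 knockouts, 28.0, 21.9 and 25.3 CPM in the Mettl3 controls and 30.5, 32.4 and 37.5 CPM in the Mettl3 knockouts; its estimate was 0.52 (SE 0.17, unadjusted p = 0.00686). Thrsp did not pass the filter on low counts.

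Among 15 genes of sterol sensing, uptake and efflux, 2 were higher (13.3%) and 1 was lower (6.67%) at that level. Insig1, which holds SREBP in the membrane and is itself an SREBP target, was at 73.5, 65.9 and 69.9 CPM in the Mettl14 controls, 104, 100.1 and 103 CPM in the Mettl14 knockouts, 79.5, 93.0 and 80.9 CPM in the Mettl3 controls and 86.5, 107 and 107 CPM in the Mettl3 knockouts. Mettl14 knockouts all lay above their controls, and the Mettl3 groups overlapped (0.40 (SE 0.13, unadjusted p = 0.00702)). Stard4, a cholesterol carrier, was at 0.46 (SE 0.18, unadjusted p = 0.0186). The transcription factors themselves were near 0: Srebf2 was at 0.18 (SE 0.16) and Srebf1 at -0.14 (SE 0.16). Abcg1, the efflux transporter induced by oxysterols through LXR, went the other way, at 74.1, 66.6 and 65.2 CPM in the Mettl14 controls, 40.3, 30.3 and 52.2 CPM in the Mettl14 knockouts, 45.6, 26.1 and 54.2 CPM in the Mettl3 controls and 25.9, 22.4 and 27.3 CPM in the Mettl3 knockouts. Mettl3 control replicate 2 lay within the range of the knockouts, and the estimate was -0.76 (SE 0.18, unadjusted p = 0.000501); Abca1, the related transporter, was at -0.25 (SE 0.22).

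To show what the promoters of these lists hold, the 250 bases before each RefSeq gene start (GRCm38.p6, both strands) were searched for 9-letter cores of the elements bound by SREBP (TCACNCCAC) and NRF2 (TGACNNNGC). The SREBP core lay before 1 of 16 cholesterol genes with a promoter in the table, against 1.22% of 27025 genes. It lay before 0 of 10 fatty acid synthesis genes and 0 of 10 genes of sterol sensing, uptake and efflux. The NRF2 core lay before 5 of 11 antioxidant genes, against 11.5% of all genes. Those 5 were G6pdx, Gclm, Nfe2l2, Prdx1 and Txnrd1, of which only Gclm was lower at an unadjusted p under 0.05. Capitals mark the match, which reads in reverse complement in Gclm, Prdx1 and Txnrd1; Hmgcs1 and Gclm are shown because they were higher and lower at an unadjusted p under 0.05, Prdx1 and Txnrd1 because they carry the core and did not reach it. The stretches are chr13:119690194-119690242, plus strand; chr3:122245403-122245451, plus strand; chr4:116685446-116685494, plus strand; and chr10:82859094-82859142, plus strand.
Hmgcs1: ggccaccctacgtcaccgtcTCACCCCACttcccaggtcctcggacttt
Gclm: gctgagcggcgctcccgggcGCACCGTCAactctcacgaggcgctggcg
Prdx1: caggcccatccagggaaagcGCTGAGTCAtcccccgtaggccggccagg
Txnrd1: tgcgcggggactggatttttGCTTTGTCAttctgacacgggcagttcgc
A match describes these letters and shows no binding.

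NRF2 antioxidant genes mostly had lower estimates in the knockouts of both lines. NRF2, the product of Nfe2l2, is held and degraded by KEAP1 and, when released, drives glutathione synthesis and detoxifying enzymes. All 14 listed genes were tested; 12 had a negative common estimate, 9 were negative in both lines, and 7 were lower at an unadjusted p under 0.05 with 0 higher, beside 1.15% lower among all genes. The median was -0.31 (-0.18 and -0.56 in the Mettl14 and Mettl3 lines). This list too was drawn up with earlier results known. Nfe2l2 and Keap1 themselves were at 0.03 (SE 0.15) and 0.06 (SE 0.17).

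Both subunits of glutamate-cysteine ligase, the first enzyme of glutathione synthesis, were without overlap in both lines. The catalytic subunit Gclc (chromosome 9, 77754535 to 77794485) stood at 133, 124 and 98.2 CPM in the Mettl14 controls, 80.0, 89.2 and 58.2 CPM in the Mettl14 knockouts, 121, 145 and 152 CPM in the Mettl3 controls and 89.9, 65.2 and 102 CPM in the Mettl3 knockouts. Its estimate was -0.66 (SE 0.15, unadjusted p = 0.000283), which is 1.58-fold higher in controls. The modifier subunit Gclm stood at 66.8, 69.7 and 78.7 CPM in the Mettl14 controls, 55.2, 64.9 and 65.9 CPM in the Mettl14 knockouts, 83.1, 93.5 and 77.4 CPM in the Mettl3 controls and 64.2, 51.7 and 67.7 CPM in the Mettl3 knockouts. The gaps were narrower (-0.35 (SE 0.14, unadjusted p = 0.0219)), with the closest libraries in the Mettl14 line.

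Gsta4, a glutathione S-transferase that clears lipid aldehydes, had the smallest p of all genes in the common term (-0.89 (SE 0.19, unadjusted p = 0.000121)). It stood at 85.9, 114 and 118 CPM in the Mettl14 controls, 89.6, 89.5 and 60.7 CPM in the Mettl14 knockouts, 245, 325 and 327 CPM in the Mettl3 controls and 145, 103 and 101 CPM in the Mettl3 knockouts. In the Mettl3 line the groups were far apart and the change passed the test there (-1.36, adjusted p = 0.0298, edgeR); in the Mettl14 line 2 knockouts lay above the lowest control. The effect was -0.39 in the Mettl14 line, and the difference between lines had an unadjusted p of 0.00469 and an adjusted p of 0.812. Slc7a11, the cystine importer, showed the same order, at -0.97 (SE 0.27, unadjusted p = 0.00160), with -0.46 and -1.48 in the Mettl14 and Mettl3 lines. Nqo1, a quinone reductase, was at 125, 156 and 102 CPM in the Mettl14 controls, 111, 97.3 and 59.0 CPM in the Mettl14 knockouts, 138, 219 and 155 CPM in the Mettl3 controls and 102, 107 and 74.5 CPM in the Mettl3 knockouts. Its Mettl3 groups did not overlap and its Mettl14 groups did (-0.68 (SE 0.18, unadjusted p = 0.000993)). Srxn1, which repairs peroxiredoxins, was at -0.44 (SE 0.14, unadjusted p = 0.00472) and Hmox1, heme oxygenase, at -0.41 (SE 0.15, unadjusted p = 0.0143). Txnrd1, Prdx1, Txn1, G6pdx and Gstm1 did not reach that level, at -0.03 to -0.28. Blvrb, biliverdin reductase, outside the list, was also among the 10 lower genes with the smallest p (-0.87 (SE 0.25, unadjusted p = 0.00246)).

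**Figure D3:**
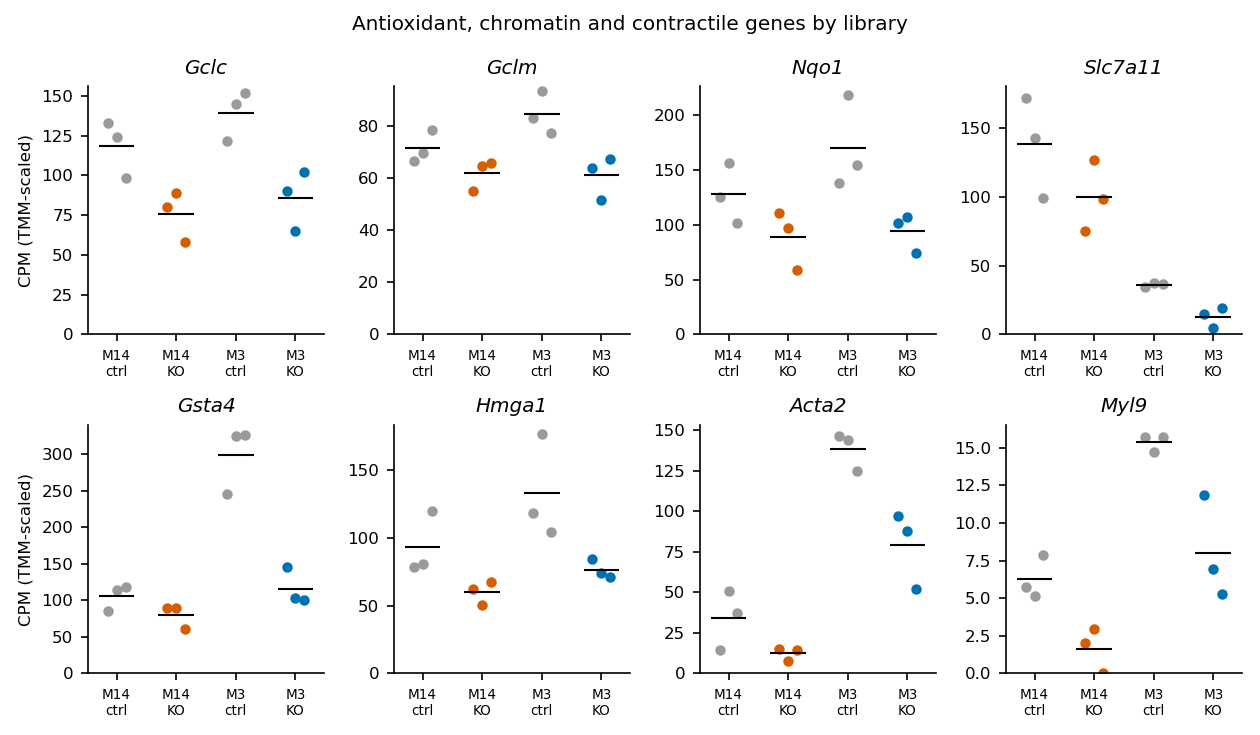
CPM (y axis, TMM-scaled) of 8 genes with lower levels in the knockouts, by library, 1 point each with the mean as a line. Gclc, Gclm, Hmga1 and Myl9 are without overlap in both lines; Slc7a11 and Gsta4 are separated in the Mettl3 line and overlap in the Mettl14 line.

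Contractile genes of smooth muscle and myofibroblasts mostly had lower common estimates, less evenly across the lines. Of 14 tested, 11 had a negative common estimate and 4 were lower at an unadjusted p under 0.05, beside 1.15% among all genes (median -0.36). In both lines 6 were negative, and 6 were positive in the Mettl3 line. The medians were -0.60 in the Mettl14 line and -0.17 in the Mettl3 line. Acta2, smooth muscle actin and the usual marker of myofibroblasts, stood at 14.4, 50.7 and 37.0 CPM in the Mettl14 controls, 15.2, 7.31 and 14.5 CPM in the Mettl14 knockouts, 146, 144 and 125 CPM in the Mettl3 controls and 97.0, 87.7 and 51.8 CPM in the Mettl3 knockouts. In the Mettl3 line all knockouts were below all controls; in the Mettl14 line control replicate 1 was as low as the knockouts (-1.12 (SE 0.26, unadjusted p = 0.000313)). Myl9, a myosin light chain, was without overlap in both lines at low levels: 5.76, 5.14 and 7.86 CPM in the Mettl14 controls, 2.02, 2.92 and 0 CPM in the Mettl14 knockouts, 15.7, 14.7 and 15.7 CPM in the Mettl3 controls and 11.9, 6.91 and 5.29 CPM in the Mettl3 knockouts. Its estimate was -1.23 (SE 0.36, unadjusted p = 0.00277). Tpm2, a tropomyosin, was at -0.59 (SE 0.20, unadjusted p = 0.00766) and Tagln, which binds actin, at -0.75 (SE 0.36, unadjusted p = 0.0491). Cald1, the most abundant of the list, was at -0.05 (SE 0.13), and Cnn1, Myh11, Actg2, Lmod1 and Synpo2 were at 4.06 CPM or less in every library. With Cald1 included, the list's summed level ran from 2544 to 2682 CPM in the Mettl14 controls, 2388 to 3031 in the Mettl14 knockouts, 3009 to 3909 in the Mettl3 controls and 2478 to 2973 in the Mettl3 knockouts, overlapping in the Mettl14 line and not in the Mettl3 line.

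Chaperones and early response genes mostly had lower common estimates of smaller size, and not all lists were lower in both lines. In the Mettl14 and Mettl3 lines the medians were -0.07 and -0.23 for cytosolic heat shock genes. For endoplasmic reticulum chaperones they were 0.03 and -0.19, and for immediate early genes -0.27 and 0.04. Without Mettl3 control replicate 2 the common median of the endoplasmic reticulum chaperones was -0.03. At an unadjusted p under 0.05, 1.15% of all genes were lower. Of 14 cytosolic heat shock genes 13 had a negative estimate and 2 (14.3%) were lower at that level: Dnajb1, an HSP40 (-0.37 (SE 0.14, unadjusted p = 0.0167)), and Hspb8, a small heat shock protein (-0.31 (SE 0.15, unadjusted p = 0.0470)). Among 16 chaperones of the endoplasmic reticulum 1 (6.25%) reached it. Hspa5, the main HSP70 of that compartment, stood at 1541, 1442 and 1474 CPM in the Mettl14 controls, 1403, 1239.9 and 1104 CPM in the Mettl14 knockouts, 1104, 1625 and 1060.5 CPM in the Mettl3 controls and 998, 941 and 974 CPM in the Mettl3 knockouts. No knockout overlapped a control of its line, by a narrow margin (-0.31 (SE 0.13, unadjusted p = 0.0279)). Of 18 immediate early genes 3 (16.7%) were lower: Klf6 (-0.38 (SE 0.15, unadjusted p = 0.0168)), Nr4a1 (-0.43 (SE 0.18, unadjusted p = 0.0264)) and Egr3 (-0.60 (SE 0.28, unadjusted p = 0.0418)).

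Some of the genes with the smallest p belong to no list above. Hmga1 (chromosome 17, 27556497 to 27563674), a chromatin architecture protein whose near-identical copies make its counts uncertain, stood at 78.8, 81.1 and 120.0 CPM in the Mettl14 controls, 62.1, 50.6 and 67.6 CPM in the Mettl14 knockouts, 119, 177 and 104 CPM in the Mettl3 controls and 84.3, 74.0 and 70.9 CPM in the Mettl3 knockouts. It was without overlap in both lines and of similar size in each (-0.65 and -0.80; common -0.73 (SE 0.16, unadjusted p = 0.000207)). Rgs16, a regulator of G protein signalling, and Prl2c2, a prolactin-family hormone with near-identical copies beside it, had the larger estimates in the Mettl3 line: -0.36 and -1.45 for Rgs16, and -0.23 and -1.61 for Prl2c2, whose counts are uncertain for that reason.

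Among the higher genes, Cdh19, a cadherin of Schwann cell precursors, led with 1.69 (SE 0.40, unadjusted p = 0.000379). It stood at 12.6, 8.80 and 4.28 CPM in the Mettl14 controls, 7.18, 14.03 and 34.2 CPM in the Mettl14 knockouts, 5.67, 3.57 and 14.2 CPM in the Mettl3 controls and 34.1, 42.4 and 38.3 CPM in the Mettl3 knockouts. The Mettl3 groups did not overlap; in the Mettl14 line the shallowest library was highest and knockout replicate 1 lay among the controls. Gpx3, a secreted glutathione peroxidase, was at 98.5, 104 and 141 CPM in the Mettl14 controls, 201, 156 and 113 CPM in the Mettl14 knockouts, 79.3, 85.6 and 65.0 CPM in the Mettl3 controls and 155, 144 and 121 CPM in the Mettl3 knockouts. It was separated in the Mettl3 line (0.67 (SE 0.16, unadjusted p = 0.000433)). C1qtnf3, an adipokine, was at 0.59 (SE 0.17, unadjusted p = 0.00191), Thsd7a at 0.84 (SE 0.24, unadjusted p = 0.00192), Kcnq5, a potassium channel, at 1.18 (SE 0.34, unadjusted p = 0.00235), and Sema3e, a guidance ligand, at 2.43 (SE 0.67, unadjusted p = 0.00160) on levels of at most 7.06 CPM. Gpm6b, a proteolipid of glia, was at 0.61, with 0.18 and 1.04 in the 2 lines.

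Cdh19 and Gpm6b had their larger estimates in the Mettl3 line, where most neural crest markers also had positive estimates. Of the 14 listed neural crest markers 13 were tested, 11 had a positive common estimate, and 2 were higher at an unadjusted p under 0.05 (15.4%, against 1.77% of all genes), among them Ngfr, a neurotrophin receptor (1.09 (SE 0.52, unadjusted p = 0.0493)). By line, 11 of 13 were positive in the Mettl3 line (median 0.47) and 8 of 13 negative in the Mettl14 line (median -0.32). The 2 markers with negative common estimates, Msx1 at -0.83 (SE 0.54) and Twist1 at -0.35 (SE 0.18), were lower in both lines. The whole list summed to 353 to 376 CPM in the Mettl14 controls, 279 to 376 in the Mettl14 knockouts, 265 to 437 in the Mettl3 controls and 509 to 546 in the Mettl3 knockouts. Sox10, which defines the lineage, was at 3.84, 6.24 and 6.36 CPM in the Mettl14 controls, 0.252, 6.72 and 4.28 CPM in the Mettl14 knockouts, 2.81, 0.0331 and 15.3 CPM in the Mettl3 controls and 18.9, 7.41 and 16.3 CPM in the Mettl3 knockouts, and Mettl3 control replicate 3 lay within the range of the knockouts. The part of neural crest cells in the levels of Cdh19 and Gpm6b was not tested.

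Several lists had opposite signs in the lines and so cancelled in the common term. All 31 cytosolic ribosomal protein genes were higher in Mettl14 knockouts and lower in Mettl3 knockouts, with medians of 0.37 and -0.36 and a common median of 0.00. The difference between lines reached an unadjusted p under 0.05 in 11 of 31, against 5.82% of all genes (938 of 16126), and 0 of 31 were without overlap in both lines. Their mean level relative to the line's controls was 1.01, 0.10 and -0.26 log2 in the Mettl14 knockouts and -0.10, -0.34 and -0.70 in the Mettl3 knockouts, while controls ranged from -0.19 to 0.34. Mettl14 knockout replicate 1 set the sign in its line: without it the Mettl14 median was -0.10. These genes have many processed copies, so their counts are uncertain. Nuclear genes of the respiratory chain followed the same order (medians 0.14 and -0.36; 17 of 23 higher in Mettl14 and lower in Mettl3 knockouts), and without that library their Mettl14 median was -0.17.

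Matrix genes ran the other way. Fibrillar and type VI collagens had medians of -0.38 in the Mettl14 line and 0.14 in the Mettl3 line, and basement membrane genes -0.26 and 0.25, with 10 of 13 of the latter lower in Mettl14 and higher in Mettl3 knockouts. The libraries of a group did not move equally. For collagens the mean level relative to the line's controls was -0.67, -0.45 and -0.05 log2 in the Mettl14 knockouts, and for basement membrane genes -0.74, -0.41 and 0.16, the shallowest library lying within the range of the controls in both. In the Mettl3 line control replicate 2 was low for both (-0.40 and -0.34), and without it the Mettl3 medians were 0.04 and 0.05. Col6a1 and Col6a2, which share the collagen VI trimer, were lower in the common term (-0.45 (SE 0.17, unadjusted p = 0.0144) and -0.50 (SE 0.19, unadjusted p = 0.0170)), from the Mettl14 line: Col6a2 stood at 330.0, 372 and 382 CPM in the Mettl14 controls, 197, 175 and 225 CPM in the Mettl14 knockouts, 814, 335 and 777 CPM in the Mettl3 controls and 656, 522 and 569 CPM in the Mettl3 knockouts. Its Mettl14 groups did not overlap and its Mettl3 groups did. Nid1, a basement membrane linker, was at -0.51 (SE 0.19, unadjusted p = 0.0124). Among 22 matricellular proteins and small proteoglycans 3 (13.6%, against 1.77% of all genes) were higher: Thbs1, thrombospondin (0.38 (SE 0.18, unadjusted p = 0.0418)), Postn, periostin (0.37 (SE 0.17, unadjusted p = 0.0431)), and Prelp (1.02 (SE 0.43, unadjusted p = 0.0270)).

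**Figure D4:**
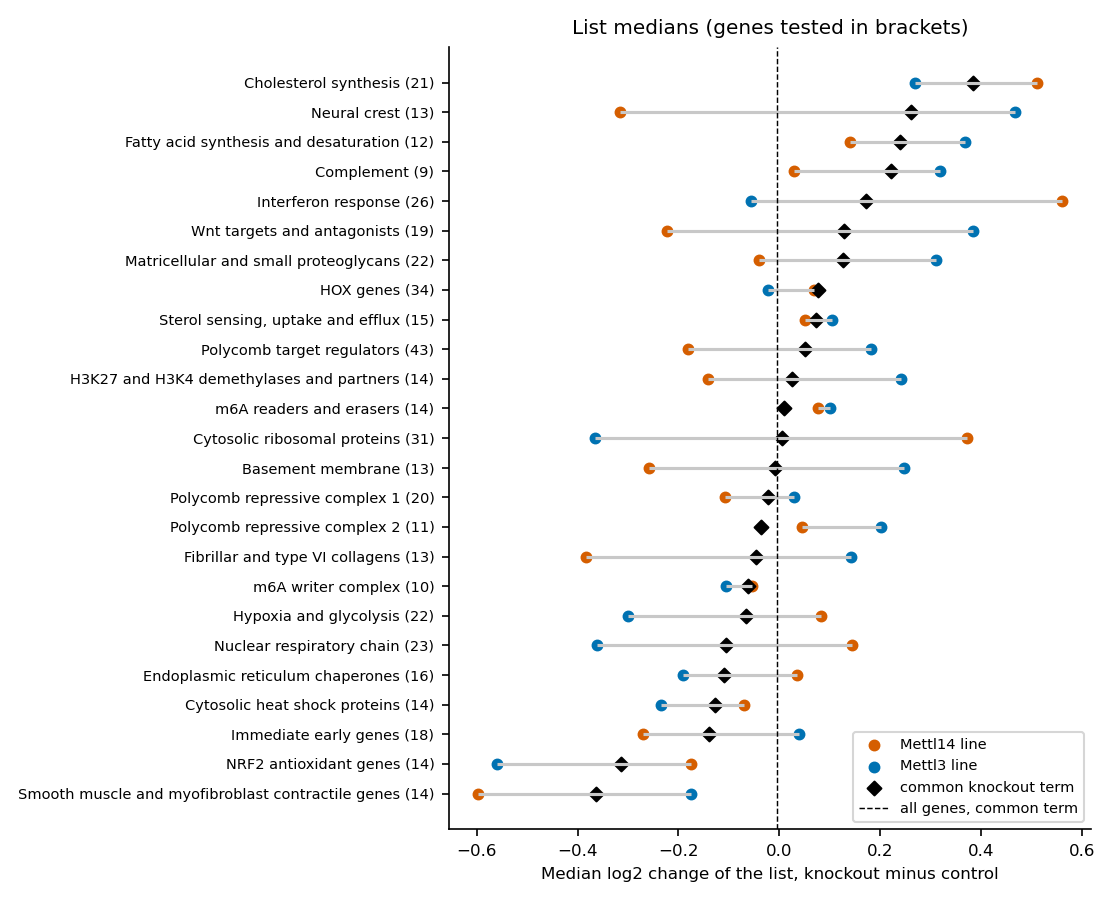
Median log2 change (x axis, knockout minus control) of the 25 lists described, for the Mettl14 line, the Mettl3 line and the common term; the dashed line is the median of all genes. Cholesterol synthesis and fatty acid synthesis are above 0 in both lines and NRF2 and contractile genes below 0 in both, while ribosomal protein, respiratory chain, collagen, basement membrane and neural crest medians have opposite signs.

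In signalling and immune lists 1 or 2 genes each reached an unadjusted p under 0.05, where 1.77% of all genes were higher and 1.15% lower. In the Wnt list 2 of 19 (10.5%) were higher, the antagonist Dkk2 (1.11 (SE 0.39, unadjusted p = 0.00920)) and the feedback inhibitor Nkd2 (0.36 (SE 0.17, unadjusted p = 0.0442)). Of 26 interferon response genes 2 (7.69%) were higher, Ifit1 (1.51 (SE 0.70, unadjusted p = 0.0423)) and Ifit2 (1.06 (SE 0.45, unadjusted p = 0.0274)); Ifit1 was at 0.439 CPM or less in the whole Mettl3 line. Mettl14 knockout replicate 2 had the highest level of that list, 1.21 log2 above its controls. Without it Ifit2 was at 0.48, Ifit1 at 1.01 and the list median at -0.09, with 0 members at that level; without Mettl14 control replicate 2 Ifit1 was at 2.93. Serping1, the C1 inhibitor, was the 1 complement gene of 9 tested (11.1%) that was higher (0.44 (SE 0.17, unadjusted p = 0.0171)), and in the hypoxia and glycolysis list 1 of 22 (4.55%) was lower, Ndrg1 (-0.43 (SE 0.20, unadjusted p = 0.0433)).

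Levels by library show which lists separated knockouts from controls. For cholesterol synthesis the mean of log2(CPM + 1), relative to the line's controls, was 0.53, 0.56 and 0.16 in the Mettl14 knockouts and 0.25, 0.33 and 0.18 in the Mettl3 knockouts, against -0.06, 0.04 and 0.02 and -0.02, -0.03 and 0.06 in the controls. All 6 knockouts lay above all 6 controls. For NRF2 genes the values were -0.11, -0.10 and -0.44 and -0.43, -0.60 and -0.62, against -0.08, 0.09 and -0.01 and -0.11, 0.11 and 0.00. Each knockout lay below the controls of its line, in the Mettl14 line by a narrow margin in replicates 1 and 2. For contractile genes the Mettl14 values overlapped through control replicate 1 and the Mettl3 values through knockout replicates 1 and 2. These scores carry no test, since the lists were chosen with results known.

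**Figure D5:**
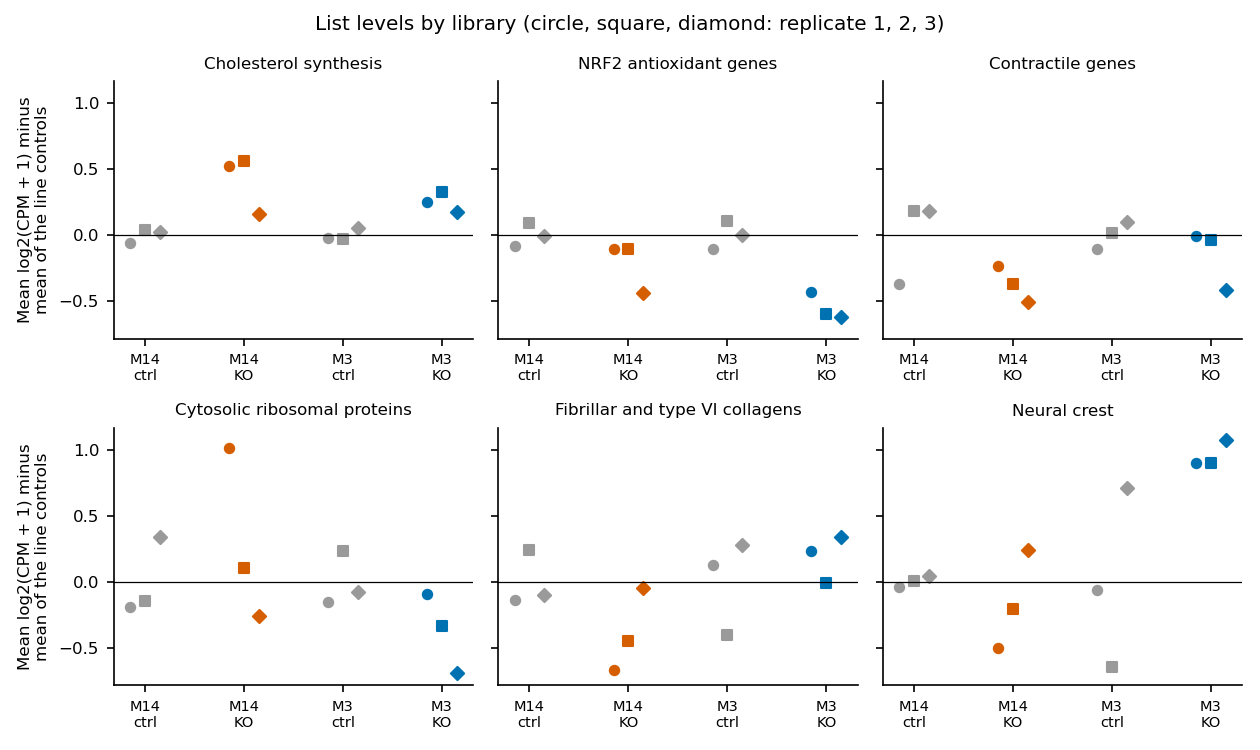
Mean log2(CPM + 1) of 6 lists in each library, minus the mean of the line's controls (y axis); circle, square and diamond are replicates 1, 2 and 3. All 6 knockouts are above 0.15 for cholesterol synthesis, and for ribosomal proteins the Mettl14 knockouts range from -0.26 to 1.01.

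The test of a difference between the lines called 1 gene, C3 (0.0062%), and 938 had an unadjusted p under 0.05. C3 (chromosome 17, 57203970 to 57228136), the central complement component, stood at 271, 365 and 226 CPM in the Mettl14 controls, 167, 272 and 261 CPM in the Mettl14 knockouts, 0, 0 and 0 CPM in the Mettl3 controls and 1.39, 2.19 and 0.920 CPM in the Mettl3 knockouts. It was abundant throughout the Mettl14 line, whose groups overlapped, and had no count in the Mettl3 controls; against a floor of 3 counts per library the Mettl3 knockouts were at least 13.5-fold higher, at a mean of 1.501 CPM. The fitted difference of the log2 changes was 7.96 (edgeR, adjusted p = 0.000408), but its size rests on the zeros and is no bound. Tested alone, the Mettl14 line called 0 genes (482 at an unadjusted p under 0.05; DESeq2 called 1), and the Mettl3 line called 3 (0.0186%; 931 at that level): C3 higher, and Gsta4 and Ces1f lower. Ces1f, a carboxylesterase, stood at 16.4, 13.2 and 10.1 CPM in the Mettl14 controls, 12.8, 11.8 and 13.7 CPM in the Mettl14 knockouts, 6.28, 1.75 and 6.31 CPM in the Mettl3 controls and 0, 0 and 0.394 CPM in the Mettl3 knockouts. Its Mettl14 groups overlapped, and 2 of 3 Mettl3 knockouts had no count.

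The other genes with the smallest p of the line difference did not pass the adjusted threshold. Fbn2, fibrillin-2, stood at 20.2, 15.8 and 19.6 CPM in the Mettl14 controls, 13.1, 9.21 and 3.42 CPM in the Mettl14 knockouts, 20.4, 19.98 and 19.6 CPM in the Mettl3 controls and 46.0, 50.9 and 46.5 CPM in the Mettl3 knockouts. It was lower in all Mettl14 knockouts and higher in all Mettl3 knockouts (-0.96 and 1.26; unadjusted p of the difference 4.38e-05, edgeR adjusted p = 0.353). Ano1, a chloride channel, showed the same order (-2.31 and 0.86). Gm23935 and Gm26917 overlap ribosomal RNA and were highest in the shallowest library. They are among the genes whose counts make up its ribosomal RNA share.

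Some genes without overlap in both lines, outside the lists described, are named here after their values were seen. Skp2, the F-box protein that marks the CDK inhibitor p27 for degradation, was at 1.56, 3.30 and 3.78 CPM in the Mettl14 controls, 4.53, 6.87 and 8.55 CPM in the Mettl14 knockouts, 4.17, 4.83 and 2.60 CPM in the Mettl3 controls and 7.95, 8.78 and 8.24 CPM in the Mettl3 knockouts. Every knockout exceeded every control of its line (1.13 (SE 0.38, unadjusted p = 0.00697)). U2af2, the splicing factor that binds the polypyrimidine tract, stood at 158, 180.0 and 219 CPM in the Mettl14 controls, 147, 157 and 125 CPM in the Mettl14 knockouts, 189, 195 and 178 CPM in the Mettl3 controls and 150.05, 159 and 144 CPM in the Mettl3 knockouts. It was lower throughout (-0.34 (SE 0.13, unadjusted p = 0.0148)). Socs7, Rtkn and Tonsl were lower at -0.61, -0.63 and -0.84, and Pip5k1b, a lipid kinase, and Naa40, a histone acetyltransferase, were higher at 0.95 and 0.49. Of the lists, cholesterol synthesis held 3 such genes, NRF2 genes 2, and the fatty acid synthesis, contractile, endoplasmic reticulum chaperone, mesenchyme and Polycomb target lists 1 each, beside 0.155% higher and 0.143% lower without overlap among all genes. The mesenchyme and Polycomb target lists hold the same gene, Tbx18.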

How the data were processed

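Polyadenylated RNA of mouse embryoid bodies was sequenced in 18 libraries, of which the 12 without inhibitor were used, 3 in each of 4 groups taken from the sample titles. The deposited values are raw read counts per Ensembl gene, made by the authors with CASAVA, Trimmomatic 0.38, HISAT2 2.1.0 and HTSeq on mm10, per the submitters' processing notes; annotation release and strand setting were not given in the sources used here. Of 54446 identifiers, 54409 were named and placed with GENCODE M21, and 37 were not matched.

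Counts were tested in R 4.3.3 with edgeR 4.0.16: filterByExpr over the 4 groups (16126 genes kept), TMM scaling, glmQLFit and glmQLFTest, with a line term and 1 knockout term for the common effect, a line-by-knockout term for the difference, and 4 group means for each line alone. Adjusted p-values are Benjamini-Hochberg over all 16126 genes, and genes with one under 0.05 are called. Levels are CPM on TMM-scaled totals, and a standard error is the estimate divided by the square root of F. Intervals at 95% use 9 residual degrees of freedom. Fits were tested on simulated data with both sets of changed genes present together. At 2-fold the difference between lines was recovered in 11% of 100 genes and at 4-fold in 83%, with 9 unchanged genes called. DESeq2 1.42.0, limma 3.58.1 (voom), RLE size factors, no filter, a replicate block, all 18 libraries, thinning to the lowest total, leaving out ribosomal RNA overlap genes, the mean of the line effects, a minimum change and each library left out were alternatives. After the data were seen, 2 were added: leaving out the 2 libraries that stood apart, and counting list members under every setting. Those libraries were Mettl14 knockout replicate 3 and Mettl3 knockout replicate 2, and Mettl14 knockout replicate 1 was kept.

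Named genes are Mettl14, Mettl3, Wtap, Ezh2, Ezh1, Kdm6a and Kdm6b; protein-coding genes called by the common term, or, as fewer than 10 were called, the 10 in each direction with the smallest p and a group mean of 5 CPM or more; for each gene list that is described, at most 4 members ranked by p; and 6 genes of the line difference. Other members of a list and the genes named for their lack of overlap are additions made with values in view. The members and the 53 gene lists were chosen with earlier results of these data known. Total counts ran from 1303697 to 32540164 a library, so 3 counts are 2.57 CPM in the shallowest and 0.0887 CPM in the deepest. Replicates correlated at Spearman 0.913 to 0.972, and every pair differed by more than sampling noise (chi-square per gene 18.9 to 70.9). Promoter sequences are from RefSeq, GRCm38.p6. Values of some genes that the naming rule selects are not reported here.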

Additional observations from a re-analysis of the deposited data

Results flagged for a closer look

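C3 differed between the lines by the test of the difference itself: its log2 knockout change was 7.96 larger in the Mettl3 line than in the Mettl14 line (edgeR, adjusted p = 0.000408; not called by limma voom, with all 18 libraries or after thinning), on 0 counts in all 3 Mettl3 controls and 0.920 to 2.19 CPM in the 3 Mettl3 knockouts. The Mettl14 libraries held 167 to 365 CPM.

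In 101 genes every knockout of one line lay above its controls and every knockout of the other line below, 50 higher in the Mettl14 and lower in the Mettl3 line and 51 the reverse. C3 is not among them, and the difference for the 101 as a set was not tested; with Mettl14 knockout replicate 1 left out the number was 190 beside 228 in the same direction, and with Mettl14 knockout replicate 3 left out it was 309 beside 117.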

How the results depend on the processing

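The common term called 0 genes in all but 3 of its alternatives: 30 with no low-count filter, 1 (C3) by the mean of the line effects, and 0 to 3 over the libraries left out in turn (3 without Mettl14 knockout replicate 1). The 30 included Cdh19, Gpx3, Idi1 and Ngfr among the higher genes, and ribosomal RNA overlap genes such as Gm23935. Gsta4, Hmga1, Acta2, Rgs16, Nqo1, Slc7a11, Prl2c2, Tagln and Ces1f were among the lower. The difference between lines called 3 genes by DESeq2, 46 with no filter, 0 by limma voom, 0 in the fit to all 18 libraries, 0 after thinning, and 1 to 10 with a library left out. The Mettl14 line called 1 by DESeq2, 22 with no filter and 0 to 10 with a library left out. The Mettl3 line called 25 by DESeq2, 43 with no filter, 0 with all 18 libraries, 0 after thinning and 2 to 12 with a library left out. Genes without overlap in the same direction numbered 83 to 228 with a library left out and 199 of 17385 tested without the 2 libraries that stood apart. In opposite directions they numbered 135 to 309 and 553. The opposite count was the larger except without Mettl14 knockout replicate 1 (190 beside 228). A smaller group overlaps less often by construction. Over all genes the correlation of line effects was -0.037 to -0.0067 with a library left out. At 10 CPM or more it was -0.17 in the main fit and -0.31 to 0.11 with a library left out. Without the 2 libraries that stood apart it was -0.36 at that abundance. Cholesterol genes at an unadjusted p under 0.05 numbered 7 with all 18 libraries and 7 to 12 with a library left out, and fatty acid genes 2 with all 18. Except for the mean of the line effects, the low-count filter, the libraries left out and the smaller groups, the cause was not tested.

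Sign changes among named genes, none of them called in the common term by the main settings, were as follows. Under voom, Kdm6a was -0.057, C3 -0.21, Ano1 0.52 and Kmt2d -0.070; after thinning, C3 was -0.20 and Ano1 0.094; without the 2 libraries that stood apart, Kdm6a was -0.23, Kmt2d -0.18, Rpl8 0.0040 and Rpl5 0.0060. With a library left out, Kdm6a ranged from -0.14 to 0.17, Ano1 from -0.59 to 0.079, Jarid2 from -0.0095 to 0.36, Kmt2d from -0.15 to 0.36, Rpl5 from -0.25 to 0.011, Rpl18 from -0.35 to 0.26 and Lama1 from -0.83 to 0.025. The medians of the cholesterol, fatty acid, NRF2 and contractile lists kept their sign in every setting run, at 0.32 to 0.42, 0.17 to 0.28, -0.42 to -0.25 and -0.48 to -0.20.

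With the replicate block the common term called 0 genes (361 at an unadjusted p under 0.05), the difference 1, the Mettl14 line 0 and the Mettl3 line 3, and Rpl18 was -0.050. Deviations of same-numbered knockout and control libraries correlated at -0.23, 0.15 and -0.29 in the Mettl14 line. In the Mettl3 line they correlated at -0.13, 0.09 and 0.18. Differently numbered libraries ranged from -0.40 to 0.50, so these values do not settle whether the numbers pair the samples. Depth limits the Mettl14 line most: genes under 2.57 CPM hold fewer than 3 counts in its shallowest library.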

Other observations

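Lists not described above held few genes with small p in the common term (edgeR, none with an adjusted p under 0.05). The genes given here were named after their values were seen, with log2 estimates of the common term. Replication-dependent histone Hist1h1e was at 1.51 (SE 0.48, unadjusted p = 0.00484). Such transcripts lack a poly(A) tail. Of 10 tested histone genes 1 (10%) reached an unadjusted p under 0.05, beside 1.77% higher and 1.15% lower among all genes. The zinc exporter Slc30a1 was at 0.68 (SE 0.25, unadjusted p = 0.0134). All 7 metallothionein and zinc transport genes were positive in the common term, beside 7952 of 16126 genes tested, but only 3 were positive in both lines. The list summed to 1245 CPM in Mettl14 knockout replicate 1. It summed to 414 and 480 CPM in the other Mettl14 knockouts and 434 to 646 CPM in the Mettl14 controls. Il6, a cytokine, was at 0.57 (SE 0.22, unadjusted p = 0.0186). In the insulin-like growth factor axis Igfbp5 was at 0.41 (SE 0.18, unadjusted p = 0.0345) and Igfbp6 at -0.42 (SE 0.20, unadjusted p = 0.0478). Cdkn2a, the locus of p16 and p19ARF, was at -0.39 (SE 0.17, unadjusted p = 0.0300). Of 7 cell cycle inhibitors 6 had negative estimates, beside 8174 of 16126 genes tested, and 4 were negative in both lines.

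Markers of cartilage and bone were highest in the Mettl3 knockouts, where the list summed to 544 to 782 CPM against 265 to 344 in the Mettl3 controls and 171 to 202 and 168 to 206 in the Mettl14 controls and knockouts. Its 12 tested genes had a common median of 0.09 (0.09 and 0.46 by line), and Col2a1, the cartilage collagen, was at 1.33 (SE 0.64, unadjusted p = 0.0494). Mmp9, a gelatinase, was at 1.13 (SE 0.45, unadjusted p = 0.0193), with 2.44 in the Mettl3 line and -0.05 in the Mettl14 line.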
